A study of Mus musculus with 20 samples.

Results

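Across the livers of this study, 643 broad domains of H3K27ac were found among 65776 H3K27ac intervals, and they held 9.30% of all acetylated bases. H3K27ac, acetylation of lysine 27 of histone H3, marks active enhancers and promoters, and it was mapped by chromatin immunoprecipitation followed by sequencing (ChIP-seq). A domain is an interval of the authors' consensus set, in mm10 coordinates, whose end minus start is 8000 bases or more. The livers came from 9-week-old male C57BL/6 mice, fasted for 24 hours, of 4 genotypes: WT, Cpt2 L-/- (called Cpt2 KO here, a knockout in liver), Ppara -/- (Ppara KO, a knockout of the whole animal's gene as far as the label tells) and Cpt2 L-/- ; Ppara -/- (DKO). All groups were fasted, so no fed state is compared, and the driver of the liver deletion is not given in the sources used here. H3K27ac and H3K4me1 were each mapped in 2 livers per genotype, and H3K9ac in 1 WT and 1 Cpt2 KO liver. The labels do not say how the mice of a genotype were related, so p-values measure only the spread between these livers.

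Broad stretches of H3K27ac, often called super-enhancers or stretch enhancers, are formed where many active elements lie side by side, and in a given tissue they tend to sit at genes that define its cells. Ppara is a nuclear receptor that pairs with Rxr, binds fatty acids released in fasting and activates genes of fatty acid oxidation, peroxisomes and ketone synthesis. Cpt2 sits in the inner mitochondrial membrane and hands long-chain fatty acids to mitochondrial oxidation, which supplies acetyl-CoA. Histone acetylation uses acetyl-CoA as its donor.

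At some genes the start site inside a domain lay in a peak in some livers and not in others, and 3 promoters are shown as examples. Each line gives the 250 bases before the start of a gene, 5′ to 3′ on the gene's strand, taken from RefSeq (GRCm38.p6, the assembly mm10 names). Capitals mark a match, on either strand, to a direct repeat of AGGNCA with 1 base of any kind between its copies, the kind of site that Ppara with Rxr, and other nuclear receptors such as Hnf4a, can bind.
Acaa1b, chr9:119157094-119157343, minus strand: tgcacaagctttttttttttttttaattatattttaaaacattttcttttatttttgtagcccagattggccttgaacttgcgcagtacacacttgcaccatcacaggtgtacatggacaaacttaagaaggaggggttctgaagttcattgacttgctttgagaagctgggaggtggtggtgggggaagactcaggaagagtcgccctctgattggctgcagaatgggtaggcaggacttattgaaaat
Fabp1, chr6:71199629-71199878, plus strand: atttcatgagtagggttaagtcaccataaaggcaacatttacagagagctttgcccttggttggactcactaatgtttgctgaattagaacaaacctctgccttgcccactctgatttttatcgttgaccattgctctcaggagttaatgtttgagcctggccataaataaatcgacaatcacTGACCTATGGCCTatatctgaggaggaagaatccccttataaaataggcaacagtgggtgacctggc
Tat, chr8:109990186-109990435, plus strand: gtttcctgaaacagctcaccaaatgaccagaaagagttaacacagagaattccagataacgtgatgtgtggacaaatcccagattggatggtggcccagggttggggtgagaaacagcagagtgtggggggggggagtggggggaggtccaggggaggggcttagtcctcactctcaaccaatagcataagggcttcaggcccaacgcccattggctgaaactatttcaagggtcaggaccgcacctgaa
At Acaa1b, a peroxisomal thiolase, the start site lay in a peak in 4 of 4 Ppara-intact livers (WT and Cpt2 KO) and in 1 of 4 Ppara-null livers (Ppara KO and DKO), where the nearest peak of the other 3 ended just short of it. At Tat, tyrosine aminotransferase, it lay in a peak in neither WT liver and in all 6 others; in WT it fell in a short gap between neighbouring peaks. At Fabp1, the liver fatty acid binding protein, it lay in a peak in all 8, and the match begins 67 bases before the start on the opposite strand. The motif was found in 2 of the 383 listed coding starts inside domains (0.522%) and in 68 of 21262 coding starts in all (0.320%). Among 28 starts in domains that were lower in Ppara-null livers, described later, Fabp1 alone held it. A match is a description of the letters and not a site.

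The domains were chosen by the measured H3K27ac length alone, and that length is a union. Each consensus interval had exactly the outline of the merged H3K27ac peaks of the 8 libraries, for 65776 of 65776 intervals. A domain could therefore pass 8000 bases through the livers of 1 genotype, and the share of its bases in peaks (its coverage) was in part set by the choice. In 132 domains no library had a single peak of that length, and in 15 all 8 had one. Lengths ran from 8004 to 45133 bases, with a median of 10032 and quartiles of 8902 and 12116.5. Just inside the limit were the domains at Pip5k1c (8004 bases), Ncoa4 (8004) and Pik3ap1 (8010), and just outside were intervals at Sucnr1 (7994), Serpina1a (7990) and B4galnt1 (7968).

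Domains had a peak in all 8 libraries more often than any shorter class of H3K27ac interval. Of the 643, 638 (99.2%) had a peak in all 8 libraries, 4 in 7 and 1 in 6. In the class from 4000 to under 8000 bases 96.3% had a peak in all 8, and under 1000 bases 6.45% did. The median over intervals of the fold enrichment, the ChIP signal over input at the highest peak, was 19.3 in domains, 14.8 in the class from 4000 to under 8000 bases and 5.88 under 1000 bases. Longer intervals have more room for a peak of each library and hold more peaks to take a highest value from. Neither the share with a peak in all 8 nor this fold is therefore independent of length.

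The domains also carried marks that the length rule did not use. H3K4me1, a mark of enhancers, had a peak in all 8 of its libraries in 637 of 643 domains, against 90.8% of the class from 4000 to under 8000 bases, and covered a median of 66.3% of their bases against 59.4%. H3K9ac, another acetylation of active chromatin, was present in the WT liver in 631 domains (98.1%) and covered a median of 72.8% of their bases, against 53.3% in the shorter class. A coding gene's start lay inside 267 of the 624 domains on chromosomes with listed starts (42.8%), against 32.4% of the class from 4000 to under 8000 bases. Those 267 domains held 383 listed starts of 302 genes. Wider intervals have more room for a peak or a start, and that was not corrected for.

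Many genes of hepatocyte function lay at the domains. The domains touched 619 coding genes, 2.83% of those listed, and 87 domains had no coding gene body within 1000 bases. Of 12 hepatocyte markers 6 lay at a domain. None of 10 Kupffer cell, 10 sinusoidal endothelial, 10 stellate, 8 cholangiocyte and 9 lymphocyte markers on the lists used here did. Domains were nevertheless found at Eng, Egfl7 and Adgrf5, genes known from endothelial cells and named after their values were seen. Among functional lists, 19 of 42 genes of the urea cycle and amino acid breakdown lay at a domain, 20 of 44 of fasting, glucocorticoid and insulin signalling, 20 of 62 of fatty acid oxidation and Ppara targets, 17 of 55 hepatocyte transcription factors, and 22 of 78 secreted plasma proteins. Bile acid and cytochrome P450 genes had the lowest share, 8 of 54. Mtss1, which bends membranes at the actin cortex, and Shb, a signalling adaptor, each touched 5 domains, and 6 other genes touched 3, among them Igf1 and Zbtb16.

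The longest domain, 45133 bases at chr15:58981385-59026517, lay in Mtss1. It was followed by domains at Klf13, a Krüppel-like transcription factor (32608 bases), Mat1a, which makes S-adenosylmethionine in liver (31758), and Cyb5a, cytochrome b5 (31104). Plpp3, a lipid phosphatase (27422), Pck1, the gluconeogenic phosphoenolpyruvate carboxykinase (26755), Pitpnm2 (26753), Tat (26634) and Nfic, a nuclear factor I gene (24950), were also among the 10 longest. The remaining one, of 26332 bases, lay 62817 bases from Ptpn1, a phosphatase that dampens insulin signalling. Mat1a shows a domain with little change: its coverage was 93.8% and 90.6% for WT, 98.5% and 97.5% for Cpt2 KO, 93.3% and 99.3% for Ppara KO, and 95.8% and 92.1% for DKO. Every liver had over 90% of that domain in peaks, and no contrast of fold or coverage passed the test there. At Mtss1 coverage was 99% and 96.2% for WT, 60.5% and 81.5% for Cpt2 KO, 93.3% and 90.4% for Ppara KO, and 76% and 79% for DKO. There all 4 Cpt2-null livers (Cpt2 KO and DKO) lay below all 4 Cpt2-intact livers (WT and Ppara KO), with a difference of −20.5 ± 5.17 points (SE, adjusted p = 0.0132), a call lost without Ppara KO replicate 1 (adjusted p = 0.0530).

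**Figure D1:**
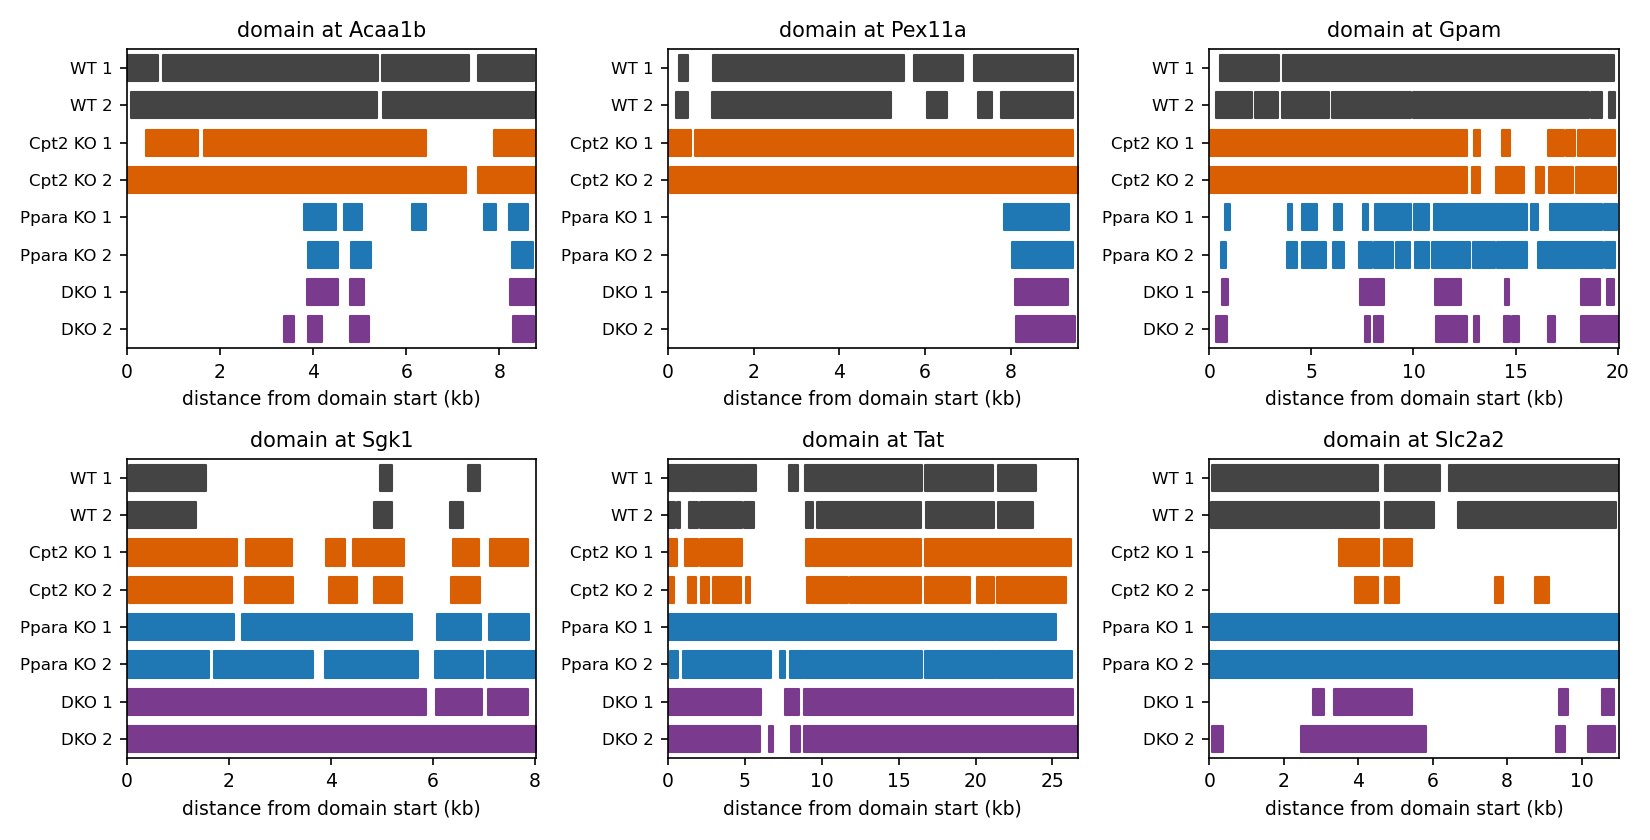
H3K27ac peaks of each of the 8 libraries (rows, coloured by genotype) over 6 domains, against the distance from the start of the domain in kb. Peaks at Acaa1b and Pex11a are short in the 4 Ppara-null livers, peaks at Sgk1 and Tat reach further there, and peaks at Slc2a2 are short in the 4 Cpt2-null livers.

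The first comparison asked how loss of Ppara changed the domains. Folds were compared as log2 values centred on each library's median peak, in a limma fit of all 18281 intervals with a peak in all 8 libraries, and a domain was called at an adjusted p under 0.05. Of 638 domains tested, 49 were called lower in fold and 27 higher in Ppara-null livers, which is 7.68% and 4.23%. Over all intervals tested 6.80% were called, 3.89% lower and 2.90% higher. In the class from 4000 to under 8000 bases 5.73% were called lower and 4.39% higher. In 50 of the 76 called domains the 4 Ppara-null and 4 Ppara-intact livers did not overlap in centred fold. Such domains were 7.84% of those tested, against 4.31% of all intervals tested. Coverage was called lower in 68 domains and higher in 33, 10.7% and 5.17%, against 4.58% and 5.0% of all intervals tested (9.58% in either direction). In the class from 4000 to under 8000 bases coverage was called lower in 8.09% and higher in 5.49%. Groups did not overlap in 58 of the 101 domains called in coverage. Such domains were 9.09% of those tested, against 6.02% of all intervals tested. Of the domains lower in fold 67.3% were also lower in coverage (33 domains), and these are 48.5% of those lower in coverage.

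Many calls depended on single libraries. When each library was left out in turn, 25 of the 76 fold calls held every time, 23 of them lower, and all 25 also held with the smallest peak width of a library as a covariate. The number of fold calls fell to 31 without Cpt2 KO replicate 2, 36 without Ppara KO replicate 1, 40 without Ppara KO replicate 2, 42 without DKO replicate 1 and 49 without DKO replicate 2. For coverage, 101 calls became 59 and 40 without Cpt2 KO replicates 1 and 2, 33 and 46 without Ppara KO replicates 1 and 2, and 53 and 47 without DKO replicates 1 and 2. With quantile normalization the fold calls were 44 lower and 44 higher. The direction of the counts also followed the livers that set the width, an alternative chosen after seeing the data: among domains that reach 8000 bases in Ppara-null livers alone, 25 were higher and 8 lower in fold, and among those that do so in Ppara-intact livers alone, 12 were higher and 49 lower.

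Peroxisomal genes were among the largest falls. At Acaa1b (chr9:119151863-119160654) the highest fold was 22 and 33.8 for WT, 37.4 and 32 for Cpt2 KO, 7.54 and 8.32 for Ppara KO, and 9.18 and 6.17 for DKO. The 4 Ppara-null livers lay between 6.17 and 9.18 and the 4 Ppara-intact livers between 22.0 and 37.4, a log2 difference of −2.03 ± 0.19 (SE, adjusted p = 6.27e-05). Coverage of that domain was 95.1% and 97.2% for WT, 77.3% and 97% for Cpt2 KO, 23% and 17.3% for Ppara KO, and 16.9% and 15.6% for DKO. In the peak maps, short peaks near the start site and at the far end remain in the Ppara-null livers.

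Hsd17b4, the peroxisomal bifunctional enzyme of beta-oxidation (chr18:50126596-50135452), had folds of 25.5 and 28.8 for WT, 46.3 and 42.1 for Cpt2 KO, 10.8 and 14 for Ppara KO, and 13.5 and 11.2 for DKO. All 4 Ppara-null values lay below all others, with a log2 difference of −1.53 ± 0.16 (SE, adjusted p = 6.27e-05). Pex14, a docking protein for import into peroxisomes (chr4:149076198-149086382), had folds of 11.5 and 14.5 for WT, 16.3 and 14.9 for Cpt2 KO, 5.40 and 5.77 for Ppara KO, and 3.71 and 6.87 for DKO and a log2 difference of −1.45 ± 0.21 (SE, adjusted p = 6.12e-04). Its coverage was 96.8% and 91.1% for WT, 52.5% and 66.6% for Cpt2 KO, 4.67% and 7.30% for Ppara KO, and 2.83% and 4.88% for DKO. The WT livers covered nearly the whole domain, the Cpt2 KO livers a smaller part, and no Ppara-null liver over 7.30%.

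Pex11a, which acts in peroxisome division (chr7:79733820-79743376), was called in coverage and not in fold. Coverage was 85.2% and 72.6% for WT, 98% and 99.5% for Cpt2 KO, 16% and 14.9% for Ppara KO, and 13% and 14.5% for DKO, −74.2 ± 8.81 points (SE, adjusted p = 0.00232). The fold at its highest peak was 25.3 and 17.8 for WT, 28.4 and 31.4 for Cpt2 KO, 17.7 and 10.7 for Ppara KO, and 21 and 19.1 for DKO, with a log2 difference of −0.64 ± 0.19 (SE, adjusted p = 0.0579), past the threshold for neither direction. The peak that remained in all 8 livers lies at the start site of the gene, at the far end of the domain in the peak maps.

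Some other genes of fatty acid handling fell as well. Cyp4a10, a fatty acid omega-hydroxylase (chr4:115513203-115522449), had folds of 12.8 and 19 for WT, 29.5 and 19.8 for Cpt2 KO, 6.17 and 5.5 for Ppara KO, and 7.0 and 6.43 for DKO, −1.67 ± 0.20 (SE, adjusted p = 1.65e-04). Its coverage was 73.9% and 69.5% for WT, 97.3% and 98.1% for Cpt2 KO, 4.68% and 2.76% for Ppara KO, and 18.9% and 10.04% for DKO, and the Cpt2 KO livers had the highest values in both measures. At the neighbouring Cyp4a14 (chr4:115490936-115498991) no peak was called in either Ppara KO liver, so the domain entered no test. Its folds were 9.25 and 11.6 for WT, 30.6 and 26.7 for Cpt2 KO and 5.32 and 5.51 for DKO. The Cyp4a genes, like Acaa1b with Acaa1a, have near-identical copies, and how reads shared between copies were placed is not given in the sources used here.

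Decr1, which oxidises polyunsaturated fatty acids in mitochondria (chr4:15936372-15945945), had folds of 19.2 and 24.6 for WT, 29.3 and 26.5 for Cpt2 KO, 9.05 and 11.8 for Ppara KO, and 8.05 and 10.6 for DKO, −1.37 ± 0.17 (SE, adjusted p = 3.09e-04). Fabp1 (chr6:71193024-71204761), whose promoter is printed above, had folds of 15.7 and 17.4 for WT, 25.7 and 25.6 for Cpt2 KO, 8.62 and 11.7 for Ppara KO, and 9.08 and 14.1 for DKO, −0.98 ± 0.18 (SE, adjusted p = 0.00407). Both Cpt2 KO livers were above both WT livers at each of these genes. Retsat, retinol saturase (chr6:72596015-72606270), had folds of 11.2 and 10.2 for WT, 26.4 and 25.9 for Cpt2 KO, 7.76 and 7.36 for Ppara KO, and 8.71 and 7.65 for DKO, −1.12 ± 0.18 (SE, adjusted p = 0.00148). Gpam, the mitochondrial acyltransferase that starts triglyceride synthesis (chr19:55091428-55111481), had one of the longest domains to fall, 20054 bases, with folds of 16.2 and 24.5 for WT, 34.7 and 27.9 for Cpt2 KO, 7.38 and 15.8 for Ppara KO, and 8.88 and 14.3 for DKO, −1.21 ± 0.22 (SE, adjusted p = 0.00403). Gpam coverage was 95.3% and 92.4% for WT, 81.3% and 89.4% for Cpt2 KO, 61.9% and 67.6% for Ppara KO, and 21.3% and 28.8% for DKO. Both DKO livers had less than either Ppara KO liver there. Bik, a BH3-only regulator of cell death (chr15:83523290-83532263), is no gene of lipid oxidation and fell too: its folds were 29.7 and 33.2 for WT, 43.2 and 34.7 for Cpt2 KO, 12.6 and 12.8 for Ppara KO, and 10.5 and 14.2 for DKO, −1.52 ± 0.16 (SE, adjusted p = 6.27e-05). Calls for fold at all of these domains held without any 1 library.

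**Figure D2:**
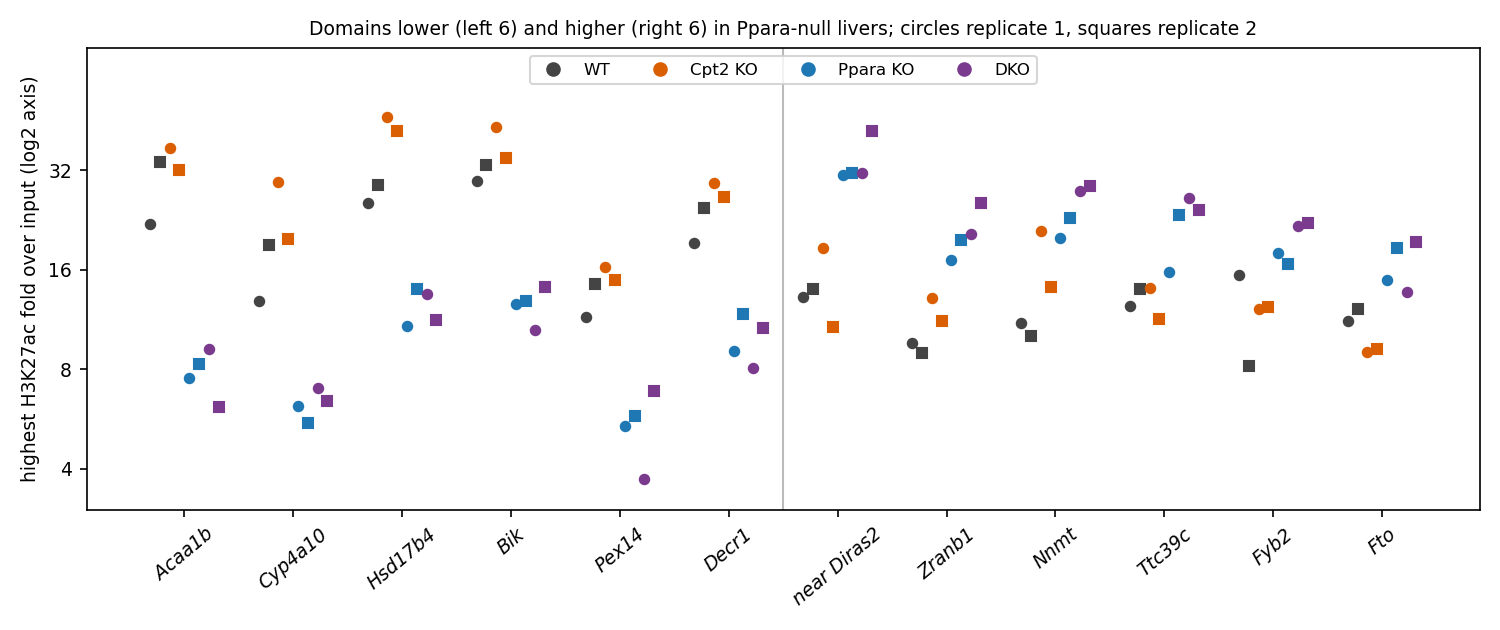
Highest H3K27ac fold over input (log2 axis) in each library at the 6 domains with the largest lower and the 6 with the largest higher difference in Ppara-null livers among called domains whose groups do not overlap after centring. At Acaa1b the 4 Ppara-null livers lie between 6.17 and 9.18 and the 4 others between 22.0 and 37.4.

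Over the list of fatty acid oxidation genes and Ppara targets, 9 of 19 domains tested were lower in fold and 0 higher, and 13 were lower in coverage and 0 higher, beside 7.68% and 10.7% of all domains called lower. The median log2 difference in fold was −0.58, against −0.01 over the 638 domains and −0.02 over all intervals tested. The median coverage difference was −27.3 points, against −1.61 and 0.08. The list was drawn from known Ppara targets, with results of these data known, so its direction is not independent evidence. Members differed widely. Cpt1a, the outer mitochondrial carnitine palmitoyltransferase, had folds of 23 and 24.7 for WT, 32.1 and 26.6 for Cpt2 KO, 19.8 and 21 for Ppara KO, and 23.2 and 29.2 for DKO, with overlapping groups and a difference of −0.23 ± 0.14 (SE, adjusted p = 0.365). Angptl4, a secreted inhibitor of lipoprotein lipase that fasting induces, had −0.34 ± 0.16 (SE, adjusted p = 0.233). A domain inside Ppara itself (chr15:85767440-85780875) had folds of 18.8 and 18.2 for WT, 29.3 and 25 for Cpt2 KO, 16.9 and 18.7 for Ppara KO, and 23.2 and 22.2 for DKO and no call.

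**Figure D3:**
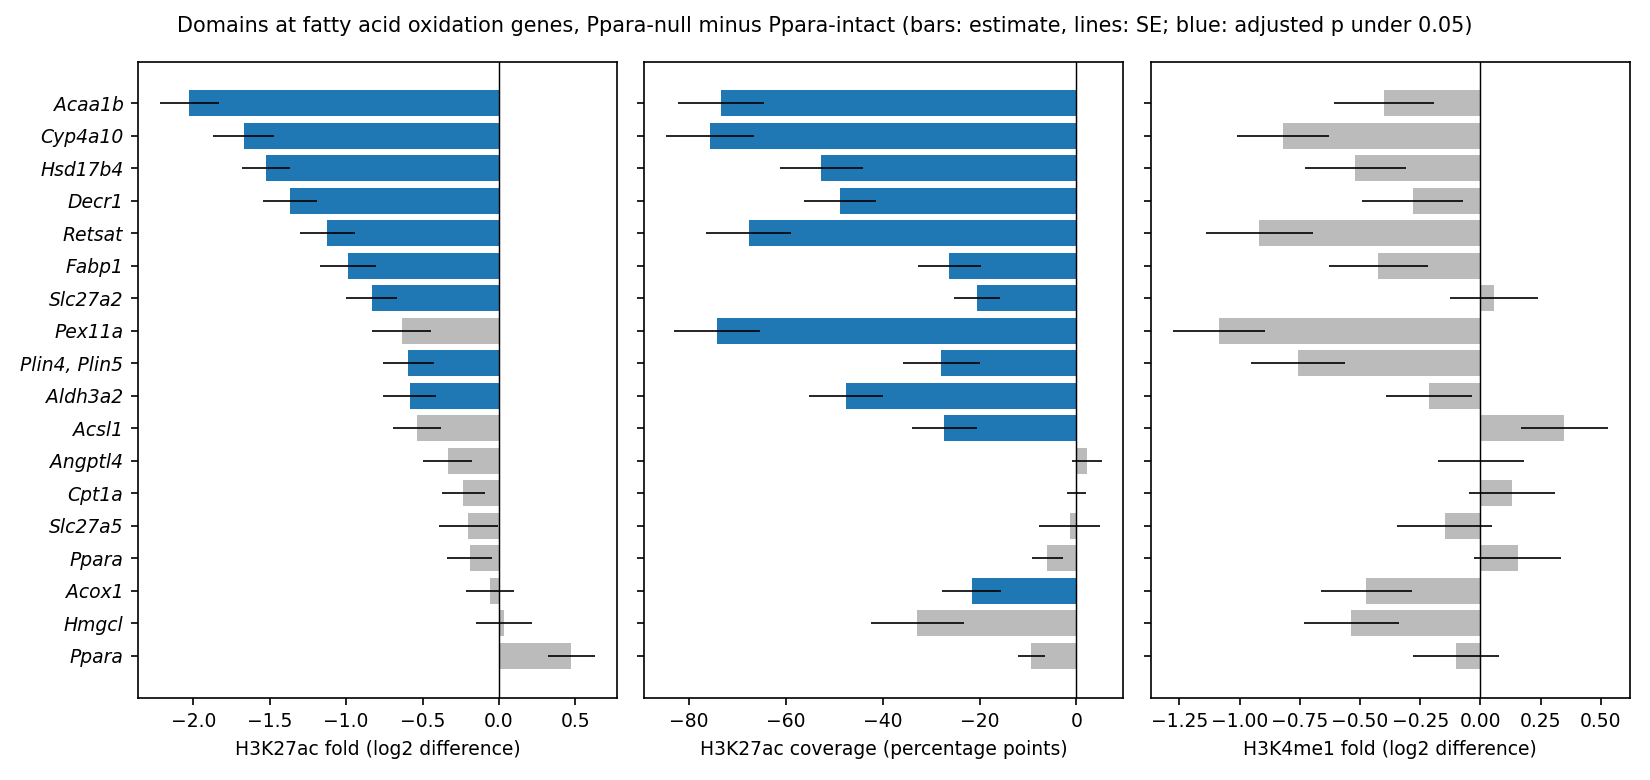
Difference between Ppara-null and Ppara-intact livers (bar, with SE as a line) at 18 of the 19 tested domains of the fatty acid list, for H3K27ac fold (log2), H3K27ac coverage (percentage points) and H3K4me1 fold (log2), with blue bars for an adjusted p under 0.05. H3K27ac differences are largest at Acaa1b and Cyp4a10 for fold, and no H3K4me1 bar is called.

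Of the 27 domains higher in fold in Ppara-null livers, 3 were on any of the gene lists: those at Tat, Slc7a2, a transporter of basic amino acids, and Zbtb16, a transcription factor. The largest difference in fold was at a domain 314951 bases from the nearest coding gene, Diras2 (chr13:52177315-52189423). Its folds were 13.2 and 14 for WT, 18.6 and 10.8 for Cpt2 KO, 30.9 and 31.4 for Ppara KO, and 31.2 and 41.9 for DKO, 1.24 ± 0.17 (SE, adjusted p = 4.67e-04), with the 4 Ppara-null livers above the 4 others. Zranb1, a deubiquitinase (chr7:132936215-132944344), had folds of 9.59 and 8.98 for WT, 13.2 and 11.2 for Cpt2 KO, 17.1 and 19.7 for Ppara KO, and 20.5 and 25.5 for DKO, 0.92 ± 0.17 (SE, adjusted p = 0.00397). These were the 2 higher fold calls that held without any 1 library. Nnmt, nicotinamide N-methyltransferase (chr9:48590197-48600441), had folds of 11 and 10.1 for WT, 21 and 14.2 for Cpt2 KO, 20.00 and 23 for Ppara KO, and 27.7 and 28.6 for DKO, 0.83 ± 0.17 (SE, adjusted p = 0.00643), with the call lost without Cpt2 KO replicate 2 (adjusted p = 0.0510). Ttc39c, Fyb2 and Fto completed the 6 largest among called domains whose groups do not overlap after centring, with log2 differences of 0.73, 0.70 and 0.64. Before centring the folds at Nnmt overlapped, with 21 in Cpt2 KO replicate 1 and 20.00 in Ppara KO replicate 1. The domain named for Fyb2 holds the listed start of C8a. The Ttc39c call was lost without Cpt2 KO replicate 2, Ppara KO replicate 2 or DKO replicate 1, and the calls at Fyb2 and Fto held in 1 of the 8 such fits each.

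In coverage, Adcy1, an adenylyl cyclase (chr11:7147091-7159362), had the largest rise. Its coverage was 8.12% and 30.8% for WT, 57.8% and 12.2% for Cpt2 KO, 100% and 89.99% for Ppara KO, and 76.9% and 75.9% for DKO, 58.5 ± 11 points (SE, adjusted p = 0.00951), with the call lost without Ppara KO replicate 1 (adjusted p = 0.0544). Sgk1, a kinase induced by glucocorticoids (chr10:21993845-22001869), had coverage of 24.6% and 23.9% for WT, 70.7% and 57.6% for Cpt2 KO, 88.2% and 90.02% for Ppara KO, and 94.2% and 100% for DKO, 48.9 ± 7.41 points (SE, adjusted p = 0.00435), a call that held without any 1 library. The 2 WT livers were lowest, the Cpt2 KO livers were intermediate and the DKO livers highest, while the fold at its highest peak had overlapping groups (0.17 ± 0.14 (SE, adjusted p = 0.523)). Both start sites listed for Sgk1 lay in a peak in all 8 livers, and the peaks downstream of them differed. A domain 4609 bases from Egfr, the epidermal growth factor receptor, rose by 37.3 ± 8.56 points (SE, adjusted p = 0.0205) and kept its call in 4 of the 8 fits with 1 library left out.

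Some domains at amino acid genes also rose in coverage. Of 19 domains on the list of the urea cycle and amino acid breakdown, 4 were called higher and 0 lower in coverage, with a median of 8.03 points. Over all domains tested 5.17% were called higher and 10.7% lower, with a median of −1.61 points, and the smaller counts of the lists that follow stand beside the same shares. They lay at Tat, Gls2 (liver glutaminase), Otc (ornithine transcarbamylase) and Ass1 (argininosuccinate synthase). At Tat coverage was 77% and 69.8% for WT, 79.6% and 72.2% for Cpt2 KO, 94.3% and 92.1% for Ppara KO, and 91.9% and 92.4% for DKO, 18 ± 4.65 points (SE, adjusted p = 0.0315), and the fold rose by 0.58 ± 0.16 (SE, adjusted p = 0.0360). The Tat calls were kept in 2 of the 8 fits with 1 library left out, the Gls2 call in 5, the Otc call in 1 and the Ass1 call in 0. Fasting and glucocorticoid genes had 3 domains called higher and 1 lower in coverage of 23, with Pck1 uncalled at 11.1 ± 4.39 points (SE, adjusted p = 0.125). Secreted plasma proteins had 1 of 21 called in each direction. Among hepatocyte transcription factors, coverage was called lower in 2 of 21 and higher in none: at Nfib, a nuclear factor I gene, and at Nr1i3. The Nr1i3 domain also holds the apolipoprotein Apoa2 and is the lower call of the plasma protein list too. Each of these 2 calls was kept in 1 of the 8 fits with 1 library left out, and the count is near the share over all domains. The clock list had 1 of 4, Hlf, a clock output factor whose coverage was 89.2% and 85.6% for WT, 41.7% and 74.1% for Cpt2 KO, 13.1% and 33.9% for Ppara KO, and 12.1% and 18.9% for DKO, −53.2 ± 10.6 points (SE, adjusted p = 0.0123), lost without Cpt2 KO replicate 2 or Ppara KO replicate 1.

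H3K4me1 gives a readout of the same domains from other libraries and another antibody. No domain was called for Ppara in H3K4me1 fold (0 of 637 by limma, 74 at an unadjusted p under 0.05, and 0.00% of 17094 intervals called). The 74 are 11.6% of the domains, against 13.7% of all intervals at that unadjusted p. The lowest adjusted p among domains was 0.0565, and without Cpt2 KO replicate 1 17 domains were called. Most differences nevertheless had the same sign in both marks. Of the 49 domains lower in H3K27ac fold, 43 had a lower H3K4me1 fold, with a median log2 difference of −0.28. Of the 27 higher ones, 24 had a higher H3K4me1 fold, with a median of 0.28. Over all 637 domains 50.5% had a lower value, and the median was −0.01. Pex11a had the lowest H3K4me1 difference on the fatty acid list, −1.09 ± 0.19 (SE, adjusted p = 0.0565), with folds of 14.2 and 10.7 for WT, 13.2 and 13.7 for Cpt2 KO, 5.73 and 6.05 for Ppara KO, and 6.03 and 6.45 for DKO. Retsat was next at −0.92 ± 0.22 (SE, adjusted p = 0.121). H3K27ac and H3K4me1 peak lists carry the same numbers in their names for a given genotype and replicate, which may mark the same liver, so the marks are not independent samples. Those numbers also fall in separate ranges for Ppara-null and Ppara-intact libraries, and what they stand for cannot be told apart from the Ppara state.

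The second comparison asked how the domains changed when liver lacked Cpt2. Coverage of the domains was lower in all 4 Cpt2-null libraries. Its median over the 643 domains was 95.6% and 93.7% in WT, 93.5% and 90.4% in Ppara KO, 70.5% and 78.8% in Cpt2 KO and 73.2% and 72.9% in DKO. The Cpt2-null and Cpt2-intact livers did not overlap. Over all 65776 intervals, with those lacking a peak counted as 0, median coverage went the other way. It was 26.8% and 22.5% in WT and 20.4% and 0% in Ppara KO. In Cpt2 KO it was 34.8% and 33.6%, and in DKO 35.8% and 50.2%. Peaks of 8000 bases or more numbered 285 and 234 in WT and 256 and 199 in Ppara KO, against 71 and 98 in Cpt2 KO and 79 and 95 in DKO. In 328 domains such a peak was found in a Cpt2-intact liver and in no Cpt2-null liver, and in 27 the reverse held. By limma 381 of 638 domains were called lower in coverage and 6 higher (59.7% and 0.940%), against 19.8% and 9.15% of all intervals tested (29.0% in either direction). In the class from 4000 to under 8000 bases 44.5% were called lower and 2.52% higher, so frequent loss was not particular to the domains. Groups did not overlap in 270 of the 387 called domains. Such domains were 42.3% of those tested, against 17.9% of all intervals tested. The median difference was −17.1 points in domains and −3.95 over all intervals. Without Ppara KO replicate 1, 255 domains were called, and 214 of the 387 calls held without any 1 library, all of them lower.

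A property of the libraries moved with this result. The smallest peak width of a list, which MACS2 ties by default to the fragment length, was 198 to 210 bases in the 4 Cpt2-intact H3K27ac libraries and 217 to 223 in the 4 Cpt2-null ones. With this width as a covariate no domain was called for Cpt2 in coverage or in fold, and 42 domains had an unadjusted p under 0.05 in coverage. The median coverage difference over the domains was −17.1 points with the covariate, as without it. Width does not overlap between the Cpt2 states, so this fit cannot separate them, and neither value decides between them. Over all intervals tested the median moved from −3.95 to −1.76 points. In H3K4me1, width followed Cpt2 state only in part, with 3 of 4 Cpt2-null libraries wide and 3 of 4 Cpt2-intact ones narrow. The median coverage of the domains was 72.7% and 69.5% in WT, 69.9% in Cpt2 KO replicate 2 and 75.8% in Ppara KO replicate 1, with widths of 196 to 200. It was 56.7% in Cpt2 KO replicate 1, 63.6% in Ppara KO replicate 2 and 56.9% and 62.0% in DKO, with widths of 210 to 221. Cpt2 state and peak width cannot be told apart in the H3K27ac libraries. The choice of domains also bears on the size: over 229 stretches that reach 8000 bases in Cpt2-null livers alone, median coverage was 96.6% and 95.7% in WT, 97.9% and 97.8% in Ppara KO, 91.8% and 95.5% in Cpt2 KO and 94.2% and 93.9% in DKO. Of the 222 domains that hold such stretches and were tested, 74 were called lower and 6 higher.

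**Figure D4:**
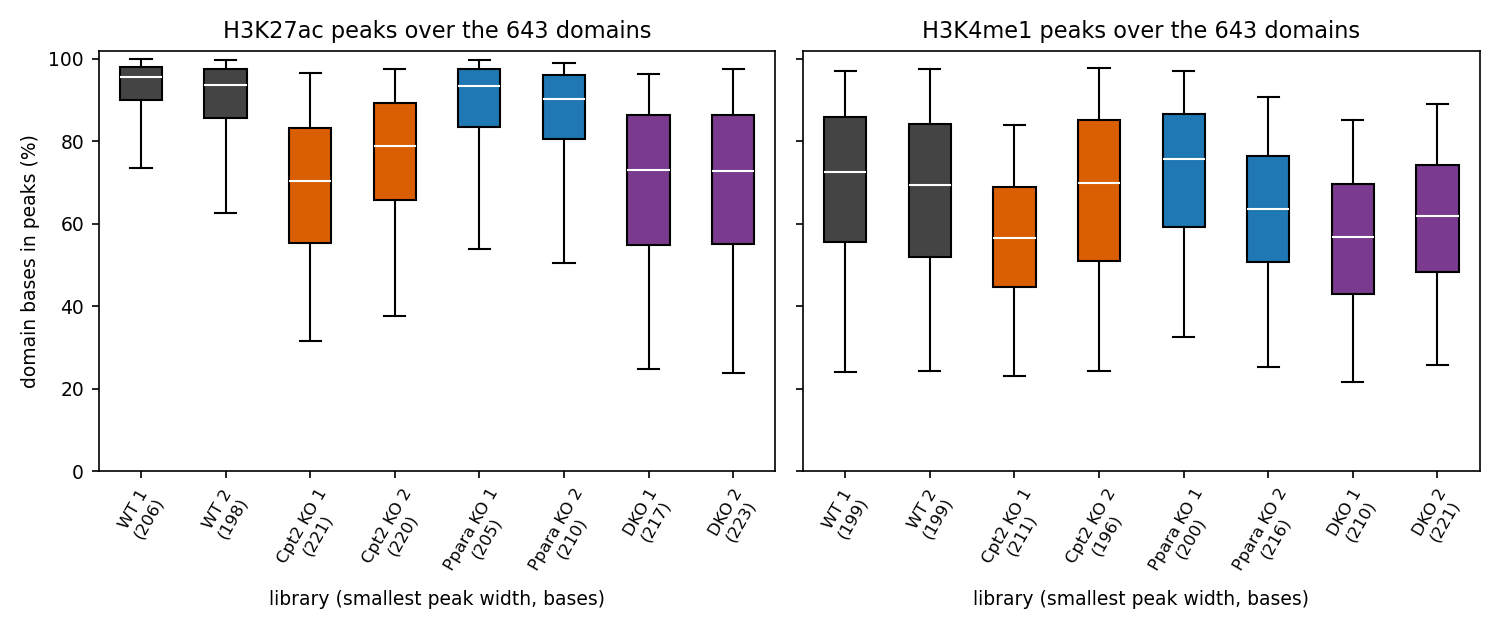
Share of domain bases in peaks (%) for each library, in H3K27ac (left) and H3K4me1 (right), over the 643 domains, with the smallest peak width of the library in brackets; boxes show quartiles and median, lines the 5th and 95th percentiles. H3K27ac medians are 70.5% to 78.8% in Cpt2-null and 90.4% to 95.6% in Cpt2-intact libraries, while H3K4me1 medians are lower in the 4 libraries with widths of 210 to 221.

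Before centring, signal at the Kupffer cell, endothelial and stellate markers was higher in the Cpt2-null livers as well. That at lymphocyte markers was higher by a narrow gap, and that at cholangiocyte markers was not. The summed highest H3K27ac fold at 10 Kupffer cell and macrophage markers was 34.1 to 51.1 in Cpt2-intact and 67.3 to 106.7 in Cpt2-null livers, with 5 to 6 and 7 to 9 of the genes having a peak. At 10 sinusoidal endothelial markers it was 124.5 to 149.9 and 193.6 to 212.9, with all 10 genes having a peak in each liver, and at 10 stellate cell markers 26.8 to 36.8 and 50.1 to 63.0. At 8 cholangiocyte markers the sum was 12.5 and 19.7 in WT, 5.81 and 7.25 in Ppara KO, 0 in both Cpt2 KO livers, and 6.69 and 14.97 in DKO, from 0 to 2 genes with a peak. Of 9 lymphocyte markers 1 to 3 had a peak in a liver, with sums of 10.2 to 19.4 in Cpt2-intact and 19.5 to 32.2 in Cpt2-null livers. At 12 hepatocyte markers the sum was 214.3 to 259.9 and 231.9 to 303.5. The folds in these sums were not centred. The median peak fold of a library was 6.69 to 7.17 in Cpt2-intact and 7.42 to 8.21 in Cpt2-null livers. None of these listed non-hepatocyte markers lay at a domain, but Adgrf5 did and was called higher in fold in Cpt2-null livers (0.59 ± 0.18 (SE, adjusted p = 0.0420)), a call kept in 2 of the 8 fits with 1 library left out. The part of other cells in the change of the domains was not tested. In bulk liver, fewer cells with a mark and less of it per cell cannot be told apart.

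Most start sites inside the domains lay in a peak in every liver. Of the 383 starts inside domains, 308 (80.4%) lay in a peak in all 8 libraries. The share in a peak was 96.6% and 97.4% in WT, 91.6% and 94.8% in Ppara KO, 91.9% and 94.3% in Cpt2 KO and 86.9% and 92.2% in DKO. In 0 starts did a peak separate the Ppara states fully in either direction, and in 0 was one found in all 4 Cpt2-null and no Cpt2-intact liver. The same counts are not given here for starts outside the domains. In 3 starts a peak was found in all 4 Cpt2-intact and no Cpt2-null liver, at Rara, a retinoic acid receptor, 4933411K16Rik and Bcat2, a branched-chain aminotransferase. They are named after their values were seen. The other listed starts of Rara and Bcat2 in the same domains, 2 and 1, lay in a peak in all 8 libraries.

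Slc2a2, the glucose transporter GLUT2 of hepatocytes (chr3:28709909-28720907), lost the most. Its coverage was 95.2% and 91.7% for WT, 16.5% and 14.3% for Cpt2 KO, 99.6% and 100% for Ppara KO, and 26.9% and 41.9% for DKO, −71.7 ± 8.15 points (SE, adjusted p = 0.00412). The fold at the highest peak had overlapping groups, 12.4 and 11.8 for WT, 12.5 and 7.77 for Cpt2 KO, 12.5 and 17.2 for Ppara KO, and 12.7 and 23.3 for DKO. In the peak maps, the largest remaining stretch of the Cpt2-null livers lies left of the middle of the domain. Nfix, a nuclear factor I gene (chr8:84785856-84796577), had coverage of 95.9% and 98.3% for WT, 8.54% and 14.3% for Cpt2 KO, 43.8% and 70.6% for Ppara KO, and 8.83% and 9.93% for DKO, −66.8 ± 10.03 points (SE, adjusted p = 0.00412). Its WT livers were highest and its Ppara KO livers intermediate.

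Other domains with large losses of coverage lay 21474 bases from Khdc1a (−63.9 ± 8.80 points (SE, adjusted p = 0.00412)), 1439 bases from Serpina1e, of the alpha-1 antitrypsin family (−56.4 ± 9.08 points (SE, adjusted p = 0.00429)), at Nsun2, an RNA methyltransferase (−56 ± 8.64 points (SE, adjusted p = 0.00412)), and in a further domain of Mtss1 (−55.5 ± 8.21 points (SE, adjusted p = 0.00412)). All 6 calls held without any 1 library. Higher coverage with groups that do not overlap was found at Por, the cytochrome P450 reductase (5.27 ± 1.66 points (SE, adjusted p = 0.0323)), and Serinc3 (9.25 ± 3.12 points (SE, adjusted p = 0.0425)), and each call held in 1 of the 8 fits with 1 library left out.

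**Figure D5:**
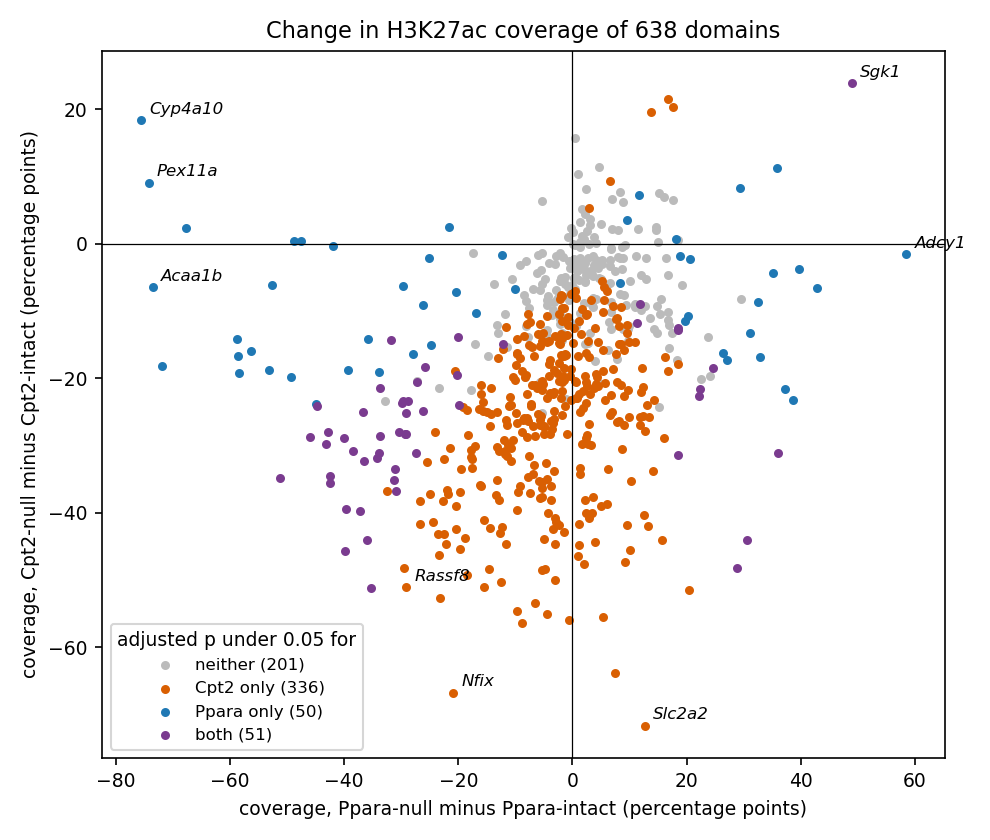
Difference in H3K27ac coverage between Cpt2-null and Cpt2-intact livers (vertical axis, percentage points) against the difference between Ppara-null and Ppara-intact livers (horizontal axis, percentage points) for 638 domains, coloured by which contrast had an adjusted p under 0.05. Cpt2 alone was called in 336 domains, Ppara alone in 50, both in 51 and neither in 201.

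Fold showed a smaller and less certain Cpt2 difference than coverage did. After centring, 48 domains were called lower and 23 higher, 7.52% and 3.61%, against 4.99% and 7.26% of all intervals tested (12.2% in either direction). In the class from 4000 to under 8000 bases 8.37% were called lower and 4.59% higher. Groups did not overlap in centred fold in 35 of the 71 called domains. Such domains were 5.49% of those tested, against 7.59% of all intervals tested. Without centring the split turned over, to 20 lower and 88 higher, and the median of all intervals moved from 0.07 to 0.25. With quantile normalization it was 56 lower and 20 higher. Calls numbered 25 and 37 without Cpt2 KO replicates 1 and 2, 31 and 34 without Ppara KO replicates 1 and 2, and 38 and 36 without DKO replicates 1 and 2. In 16 domains the call held without any 1 library, 13 of them lower.

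Rassf8, which carries a Ras association domain (chr6:145754466-145765450), had the largest fall, with folds of 22.5 and 23.1 for WT, 7.18 and 7.66 for Cpt2 KO, 11.2 and 13.9 for Ppara KO, and 4.70 and 5.75 for DKO, −1.63 ± 0.18 (SE, adjusted p = 5.20e-04). WT livers were highest, Ppara KO livers intermediate and DKO livers lowest. Gldc, glycine decarboxylase of the glycine cleavage system (chr19:30166317-30175578), had folds of 20.5 and 30.1 for WT, 9.20 and 8.11 for Cpt2 KO, 27.2 and 27 for Ppara KO, and 15.4 and 12.2 for DKO, −1.44 ± 0.18 (SE, adjusted p = 7.36e-04). The Cpt2-null livers lay below the others there without overlap, the Cpt2 KO livers lowest. Domains near Khdc1a (−1.19), 1745 bases from Cox8b (−1.17), and at Ptprf, a receptor phosphatase (−1.13), and Nfix (−1.10) completed the 6 largest falls in log2 fold among called domains whose groups do not overlap after centring. All 6 calls held without any 1 library.

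The domain at Idua, a lysosomal iduronidase, which also holds the listed starts of Slc26a1 (chr5:108668395-108678200), rose in fold and lost coverage at the same time. Its folds were 15.9 and 16.6 for WT, 30.01 and 30.9 for Cpt2 KO, 13.2 and 19.8 for Ppara KO, and 34.4 and 28.7 for DKO, 0.75 ± 0.16 (SE, adjusted p = 0.0104). Its coverage was 98.2% and 99.6% for WT, 63.5% and 75.8% for Cpt2 KO, 88.6% and 88.9% for Ppara KO, and 57.9% and 54.9% for DKO, −30.8 ± 5.98 points (SE, adjusted p = 0.00536). Both calls held without any 1 library, and the Cpt2-null livers were above all others in fold and below them in coverage. Of the 23 domains called higher in fold, 6 were called lower in coverage and 0 higher. Of the 48 called lower in fold, 40 (83.3%) were called lower in coverage, which is 10.5% of the 381. Hgd, of tyrosine breakdown (0.68), Trim25, a ubiquitin ligase (0.67), Slc25a22, a mitochondrial glutamate carrier (0.66), and a domain 75880 bases from Ppm1b (0.76) were also higher in fold, each with its call kept in 5 of the 8 fits with 1 library left out.

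By list, lower coverage in Cpt2-null livers was called in 2 of 19 domains of the fatty acid list, at Acsl1 and Slc27a5, and in 3 of 23 of the fasting list, at Pim3, Irs1 and Lpin1. It was called in 12 of 21 domains at secreted plasma proteins, 11 of 21 at hepatocyte transcription factors, 8 of 19 at urea cycle and amino acid genes, 7 of 10 at bile acid and P450 genes, 4 of 6 at lipogenic and cholesterol genes and 3 of 4 at clock genes, beside 59.7% of all domains tested. Higher coverage was called in 2 domains of the fasting list, at Errfi1 and Sgk1, and in 1 each of the urea cycle and the bile acid and P450 lists, at Cps1 and Por. With each library left out in turn, the calls at Acsl1 and Slc27a5 were kept in 2 of 8 fits, that at Irs1 in 4, that at Cps1 in 1, that at Sgk1 in 3 and that at Errfi1 in 6. Median differences were −3.09 points for the fatty acid list and −0.17 for the fasting list, against −17.1 over the domains. The domain spanning Apoa1 and Apoc3, apolipoproteins of HDL and triglyceride-rich particles (chr9:46213231-46233397), had coverage of 98.8% and 98.5% for WT, 70.7% and 69.6% for Cpt2 KO, 97.7% and 95% for Ppara KO, and 77.3% and 77.2% for DKO, −23.8 ± 3.92 points (SE, adjusted p = 0.00443). That of Elovl6, a fatty acid elongase, fell by 40.1 ± 7.42 points (SE, adjusted p = 0.00492). At Nr1i2, the xenobiotic receptor Pxr, coverage was 96.9% and 96.6% for WT, 94.8% and 96.7% for Cpt2 KO, 96.3% and 97.6% for Ppara KO, and 99.6% and 97.5% for DKO, with no loss in Cpt2-null livers past the threshold (0.319 ± 1.64 points (SE, adjusted p = 0.899)). No list was tested as a set.

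In H3K27ac fold no domain was called for the interaction, the difference between the Cpt2 effects with and without Ppara. By limma 0 of 638 were called, with 99 at an unadjusted p under 0.05, a lowest adjusted p of 0.0733, and 0.00% of all intervals called. The interaction was not examined in coverage. The 99 are 15.5% of the domains, near the 14.3% of all intervals at that unadjusted p. Of the domains called for fold, 13 were called in both contrasts. They are 17.1% of the Ppara calls, beside 11.1% of all domains tested that were called for Cpt2. They are 18.3% of the Cpt2 calls, beside 11.9% of all domains tested that were called for Ppara. The overlap over all intervals is not given here, and whether these shares differ was not tested. One such domain was at Sult2a8, a sulfotransferase (chr7:14434734-14444968), chosen after its values were seen, with folds of 37.3 and 31.3 for WT, 27.9 and 23.8 for Cpt2 KO, 16.7 and 19.6 for Ppara KO, and 12.7 and 11 for DKO. DKO livers were lowest and both differences were below 0, −1.06 ± 0.16 (SE, adjusted p = 8.41e-04) for Ppara and −0.70 ± 0.16 (SE, adjusted p = 0.0122) for Cpt2.

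In H3K4me1 fold no domain was called for Cpt2 (0 of 637 by limma, 52 at an unadjusted p under 0.05, lowest adjusted p = 0.357), and 5 were called without Cpt2 KO replicate 2. The 52 domains at an unadjusted p under 0.05 are 8.16% of those tested, against 10.1% of all intervals. H3K9ac, with 1 liver a group and no replicate check, covered a median of 72.8% of a domain in WT and 57.1% in Cpt2 KO. It was lower in the Cpt2 KO liver in 483 domains and higher in 152, and 8 domains had none in either. In the class from 4000 to under 8000 bases the median H3K9ac coverage was 53.3% in WT and 43.9% in Cpt2 KO. A lower median was therefore not particular to the domains. The WT list had a smallest H3K9ac interval of 198 bases, while that of the Cpt2 KO list was 190. With 1 liver a group, any part of width in this coverage difference was not tested. Over the genome the 2 lists covered 37.5 and 37.4 Mb.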

How the data were processed

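Per the submitters' processing notes, the authors aligned reads with BWA and called peaks with MACS2 2.1.0 on mm10. The deposited H3K27ac and H3K4me1 peak lists give a fold of ChIP over input at each summit, a linear ratio, and a −log10 q-value, and the deposited consensus table gives interval positions, with no other column used here; H3K9ac was used as positions only. Read depth is not given in the sources used here, and input libraries were not analysed here. A library's value in a domain was its highest peak fold, as log2 centred on the library's median peak, and the percent of bases in its peaks. limma 3.58.1 (R 4.3.3, trended variance) fitted 4 genotype means over all intervals with a peak in all 8 libraries, with Benjamini-Hochberg adjustment over all of them, and the fit was tested on simulated data. Ppara-null means Ppara KO and DKO, and Cpt2-null means Cpt2 KO and DKO, averaged equally. A gene lay at a domain when its coding body with 1000 bases on either side overlapped it. Named were the 10 longest domains, up to 4 of the longest on each list, and 3 on each side of the length limit. Also named were the 6 largest called differences in each direction with groups that do not overlap, for fold after centring. The domains at Angptl4, Cpt1a, Elovl6, Fabp1 and Sult2a8 were named in addition, after their values were seen, and some domains are not reported here. Domains and gene lists were chosen with earlier results of these data known. Alternatives were other scalings, fold summaries, filters and lengths, peak width as a covariate, a replicate block and leaving out each library.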

Additional observations from a re-analysis of the deposited data

How the results depend on the processing

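The number of domains was 1314 at a minimum of 6000 bases and 323 at 10000. With the smallest peak width as a covariate, Ppara calls numbered 43 in fold and 56 in coverage and Cpt2 calls 0 in both, with 40 and 42 domains at an unadjusted p under 0.05 and a median Cpt2 coverage difference of −17.1 points, as without it; Serinc3 then turned to −6.71 points in coverage for Cpt2 (adjusted p = 0.792). Without centring, Cpt2 fold calls numbered 108. Chosen after seeing the data were domains that reach 8000 bases in some livers alone. With Cpt2-null livers alone, calls were 32 for Ppara and 16 for Cpt2 in fold, and 46 and 80 in coverage; with Ppara-null livers alone they were 33, 35, 39 and 201. H3K4me1 calls for Ppara were 1 without centring, 1 at a −log10 q of 10 or more, 2 at a peak overlap of 50%, and 5 with uncalled libraries filled in. Leaving out 1 library gave 31 to 86 Ppara and 25 to 71 Cpt2 calls in fold, 33 to 73 and 255 to 383 in coverage, and 0 to 17 and 0 to 5 in H3K4me1; such fits have fewer samples, and the cause of the other shifts was not tested. Replicate numbers did not pair the livers (correlations of −0.0649 to 0.172 in H3K27ac and −0.493 to 0.108 in H3K4me1); with the replicate block, calls were 89 and 82 in fold, 109 and 386 in coverage, and 0 for the interaction and both H3K4me1 contrasts. The interaction in H3K27ac fold gave 0 calls under each alternative run, and none was run for it in coverage. Over named domains, 1141 values kept their side of the threshold, 362 lost it and 1 reversed. Read depth was not known, so an uncalled stretch may be a limit of detection.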
